A study of Mus musculus with 8 samples.

Results

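The genes described here anchor the epidermis to the dermis, and their transcripts were compared between GR-null and wild-type embryonic mouse skin. They comprise 9 genes (Col17a1, Lama3, Lamb3, Itga6, Itgb4, Itga3, Dst, Plec and Col7a1), of 18193 genes measured in all, and were read at every probe set annotated to one of these symbols alone. These were 18 of 45037 probe sets. One more probe set lists Plec together with another gene and was left out. GR-null embryos were GR-/-, without the glucocorticoid receptor, the hormone-activated transcription factor encoded by Nr3c1, and wild-type embryos were GR+/+ littermates. All carried the B6D2/F1 background and were taken at embryonic day 18.5, shortly before birth. Each group held 4 Affymetrix Mouse Genome arrays of dorsal skin, with label numbers 5, 17, 25 and 26 for GR-null and 4, 6, 28 and 29 for wild-type. The allele that makes the null is not stated in the sources used here. Nor is it stated that the arrays came from separate embryos, so p-values measure the spread between these samples, which may be technical. GR-null 17 stood apart from the other GR-null arrays in muscle transcripts, with a mean over 20 muscle markers of 11.92 log2. That mean was 11.14 to 11.45 log2 in GR-null 5, 25 and 26. Some results, not all, are therefore also given without GR-null 17.

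Basal keratinocytes are held to the basement membrane by hemidesmosomes. Inside the cell the plakins plectin (Plec) and dystonin (Dst) tie keratin filaments to the integrin formed by the Itga6 and Itgb4 products and to type XVII collagen (Col17a1), both of which cross the cell membrane and reach a laminin that contains the Lama3 and Lamb3 chains. Type VII collagen (Col7a1) forms anchoring fibrils that fasten this laminin to the dermal matrix, and the Itga3 product is the alpha chain of another laminin-binding integrin of basal keratinocytes. Loss of function of these genes is known from blistering skin disease. The first 8 genes are called the keratinocyte side here and Col7a1 the anchoring fibril.

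In GR-null skin the hemidesmosomal collagen gene Col17a1 and the laminin gene Lama3 were higher, by 0.59 and 0.56 log2 (1.47-fold for Lama3), while Col7a1 was lower by 1.63-fold (-0.70 log2). The other 6 genes were not past the threshold of an adjusted p of 0.05 (limma, Benjamini-Hochberg over 18193 genes). The count was thus 2 higher and 1 lower of 9, against 1.40% of all genes called higher and 1.56% called lower. The median log2 fold change of the 9 genes was 0.18, beside a median of -0.0045 over all genes. In whole skin, fewer cells of a type and less RNA per cell cannot be told apart.

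The sequences just upstream of the annotated starts of Col7a1 and Col17a1 are shown because these genes differed in opposite directions. Each run holds the 250 bases before the start, 5′ to 3′ on the gene's own strand, from RefSeq on GRCm38.p6, at chr9:108953336-108953585 on the plus strand for Col7a1 and at chr19:47692043-47692292 on the minus strand for Col17a1. Capitals mark the GC box GGGCGG, a motif bound by Sp factors.
Col7a1: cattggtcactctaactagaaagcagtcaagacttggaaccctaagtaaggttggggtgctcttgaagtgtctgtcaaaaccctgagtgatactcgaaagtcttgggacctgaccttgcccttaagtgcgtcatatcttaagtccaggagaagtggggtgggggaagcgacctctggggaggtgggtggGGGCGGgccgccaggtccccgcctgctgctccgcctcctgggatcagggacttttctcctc
Col17a1: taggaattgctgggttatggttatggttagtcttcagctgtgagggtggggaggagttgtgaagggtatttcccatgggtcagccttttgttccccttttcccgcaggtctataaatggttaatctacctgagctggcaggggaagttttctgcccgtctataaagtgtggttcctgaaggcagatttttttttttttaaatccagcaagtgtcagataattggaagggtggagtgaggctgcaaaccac
Both strands were searched for GGGCGG, for the glucocorticoid receptor half-site AGAACA, for the full glucocorticoid response element, an inverted repeat of that half-site around a spacer of any bases, and for the AP-1 motif TGANTCA. Each full element contains the half-site. Of the 9 genes, 5 had entries in the RefSeq promoter table (Dst, Lamb3, Itga3, Col7a1 and Col17a1), with 8 upstream windows between them. The GC box was found in 4 of the 8 windows, from 3 genes, beside 32.7% of all 32851 windows. The full element, the half-site and the AP-1 motif were found in 0 of the 8, beside 0.00913%, 16.1% and 6.75% of all windows. The GC content was 56.4% for Col7a1 and 46.0% for Col17a1, beside a median of 52.4%. A match here describes letters in this window, not a site in use.

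The genotype was first read at Nr3c1 itself. At its brightest probe set Nr3c1 was 9.42 ± 0.23 log2 in GR-null and 10.26 ± 0.040 log2 in wild-type skin (SD, n = 4 each), a difference of -0.84 ± 0.11 (SE, limma, adjusted p = 0.0108 over genes). The groups did not overlap there, and 2 further probe sets were lower by more, at -1.86 and -2.70 log2. The remaining 3 were not past the threshold. A probe set outside the disrupted part of Nr3c1 does not check the genotype, and their positions are not stated. The tissue label was read at defining markers. The basal keratins Krt5, Krt14 and Krt15 averaged 13.05, 12.80 and 12.06 log2 in GR-null and 13.19, 13.00 and 11.84 log2 in wild-type skin, and the dermal collagen gene Col1a1 averaged 14.05 log2 in GR-null and 14.35 log2 in wild-type skin, on a table that ran from 2.98 to 15.06. RMA gives no values of 0, so no marker is listed at 0.

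Among the membrane-spanning parts of the hemidesmosome, Col17a1 read 10.31, 10.13, 10.50 and 10.56 log2 in GR-null 5, 17, 25 and 26, against 9.67, 9.69, 9.76 and 10.04 log2 in wild-type 4, 6, 28 and 29. The lowest GR-null array, number 17, lay above the highest wild-type array, number 29. The difference was 0.59 ± 0.12 log2 (SE, n = 4 per group, 95% interval 0.31 to 0.86, limma adjusted p = 0.0408). Col17a1 has 1 probe set on this array, so no further probe set bears on it.

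Its partner integrin differed less. Itga6, which encodes the alpha chain, read 11.61, 11.72, 11.63 and 11.54 log2 in GR-null 5, 17, 25 and 26, against 11.51, 11.35, 11.39 and 11.53 log2 in wild-type 4, 6, 28 and 29. The groups only just failed to overlap, and the difference of 0.18 ± 0.077 log2 was not past the threshold (95% interval 0.0096 to 0.36, limma adjusted p = 0.209). Its second probe set had the opposite sign, at -0.11 (95% interval -0.42 to 0.20). Itgb4, the beta chain, read 7.94, 8.37, 8.39 and 8.33 log2 in GR-null skin, against 7.89, 7.93, 7.998 and 8.09 log2 in wild-type skin, in the same order of arrays. GR-null 17, 25 and 26 lay above every wild-type array and GR-null 5 lay within the wild-type range. The difference of Itgb4 was 0.28 ± 0.11 log2 (95% interval 0.032 to 0.53, limma adjusted p = 0.184). The log2 ratio of Itga6 to Itgb4, which has no absolute meaning between different probe sets, was 3.37 ± 0.21 in GR-null and 3.47 ± 0.10 in wild-type arrays (SD, n = 4 each), with overlapping groups.

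Itga3 gave different readings at its 3 probe sets. At the brightest, the difference was 0.029 ± 0.12 log2 (95% interval -0.24 to 0.30, limma adjusted p = 0.928), and at the second it was 0.097 ± 0.11. At the dimmest, Itga3 read 6.35, 6.34, 6.75 and 6.77 log2 in GR-null 5, 17, 25 and 26, against 5.99, 5.92, 5.93 and 5.97 log2 in wild-type 4, 6, 28 and 29. Those groups did not overlap, and the difference was 0.60 ± 0.12 log2 (limma adjusted p = 0.0316 over probe sets). That dim probe set is not the one that stands for the gene, and which transcripts each probe set reads is not stated in the sources used here.

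**Figure D1:**
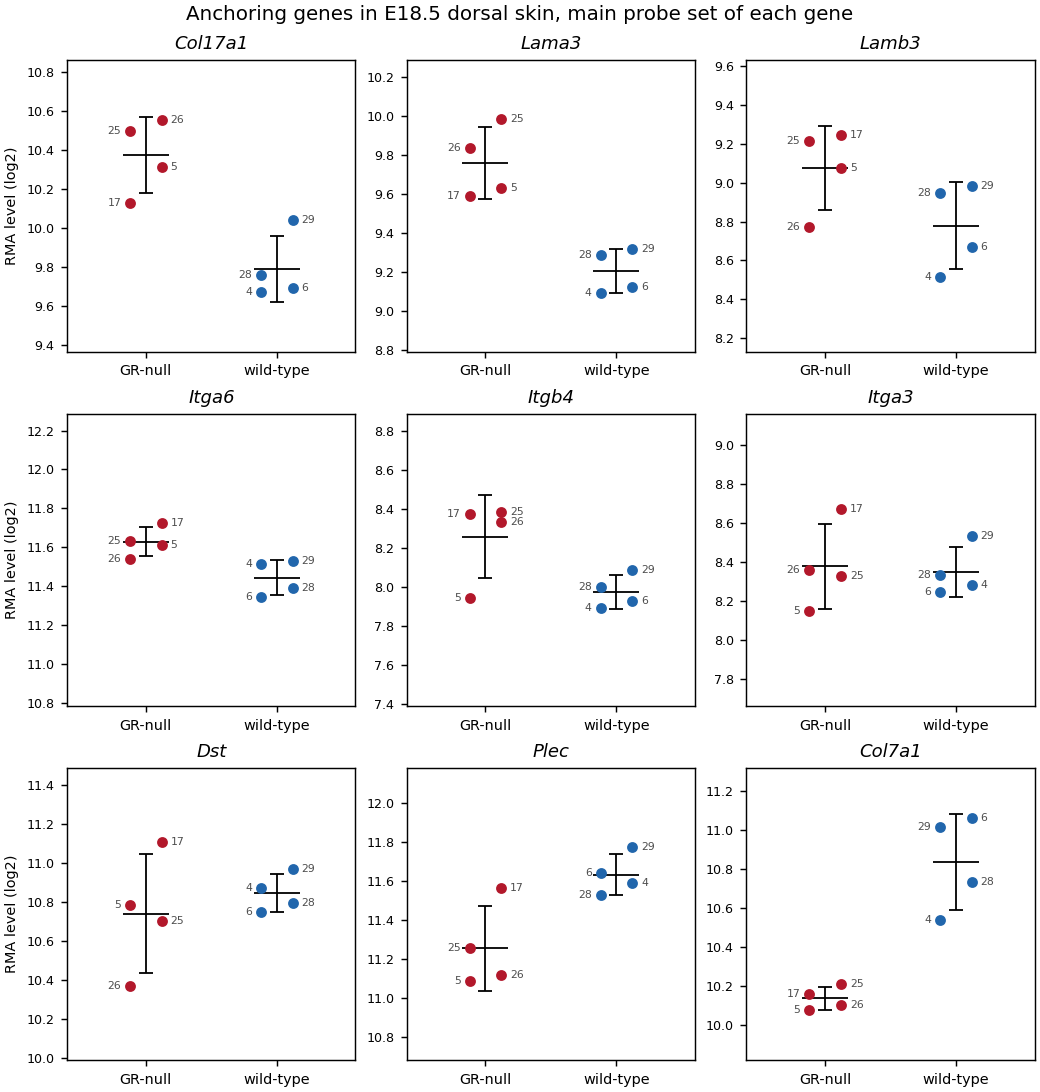
RMA level (log2) of each gene at its main probe set in 4 GR-null arrays (left in each panel) and 4 wild-type arrays (right), each point 1 array with its label number, with mean and SD in black; all panels span the same log2 range. Col17a1 and Lama3 lie higher and Col7a1 lower in GR-null arrays with no overlap, Itga6 is separated by a narrow margin, and the other panels overlap.

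Of the laminin chains, Lama3 was the more separated. Lama3 read 9.63, 9.59, 9.99 and 9.84 log2 in GR-null 5, 17, 25 and 26, against 9.09, 9.12, 9.29 and 9.32 log2 in wild-type 4, 6, 28 and 29. Every GR-null array lay above every wild-type array, by 0.56 ± 0.11 log2 on average (SE, 95% interval 0.32 to 0.80, limma adjusted p = 0.0337). A second, much dimmer Lama3 probe set averaged 5.16 log2 in GR-null and 5.00 log2 in wild-type skin, a difference of 0.16 (95% interval -0.022 to 0.34). Lamb3, the beta chain of the same laminin, read 9.08, 9.24, 9.22 and 8.77 log2 in GR-null skin, against 8.52, 8.67, 8.95 and 8.98 log2 in wild-type skin, in the same order of arrays. GR-null 26 fell inside the wild-type range, and the difference of 0.30 ± 0.14 log2 was not past the threshold (95% interval -0.0175 to 0.61, limma adjusted p = 0.256). The log2 ratio of Lama3 to Lamb3 was 0.69 ± 0.31 in GR-null and 0.43 ± 0.11 in wild-type arrays (SD, n = 4 each), with overlapping groups.

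The plakins inside the cell did not follow Col17a1 and Lama3. Plec read 11.09, 11.56, 11.25 and 11.12 log2 in GR-null 5, 17, 25 and 26, against 11.59, 11.64, 11.53 and 11.78 log2 in wild-type 4, 6, 28 and 29. GR-null 5, 25 and 26 lay below every wild-type array and GR-null 17 lay within their range. The difference was -0.38 ± 0.12 log2 (95% interval -0.64 to -0.12, limma adjusted p = 0.105). Without GR-null 17 it was -0.48 log2 and past the threshold (limma adjusted p = 0.0173). Of the 8 fits without 1 array, that was the 1 in which Plec passed. In that fit 948 of 18193 genes were called lower, beside 284 with all arrays. With the mean of the 20 muscle markers as a covariate, the difference of Plec was -0.027 log2 (limma adjusted p = 0.960). This main probe set has a name ending in _s_at, a kind that can take up more than one transcript. The next probe set of Plec, at 10.32 log2 in GR-null and 10.24 log2 in wild-type skin, gave 0.085 (95% interval -0.12 to 0.29), and the dimmest gave -0.35 (-0.74 to 0.049). Dst had 4 probe sets with differences of -0.11, 0.32, -0.32 and 0.20 log2 from brightest to dimmest, each with a 95% interval that included 0. At the main probe set Dst read 10.79, 11.11, 10.70 and 10.37 log2 in GR-null arrays, against 10.87, 10.75, 10.79 and 10.97 log2 in wild-type arrays, in the same order. The GR-null values of Dst enclosed the wild-type ones, and the adjusted p was 0.741 (limma).

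Col7a1, the anchoring fibril collagen, moved the other way. Col7a1 read 10.07, 10.16, 10.21 and 10.10 log2 in GR-null 5, 17, 25 and 26, against 10.54, 11.06, 10.73 and 11.01 log2 in wild-type 4, 6, 28 and 29. The 4 GR-null arrays lay within a narrow band below all wild-type arrays, with an SD of 0.059 log2 in GR-null and 0.25 log2 in wild-type skin. The difference was -0.70 ± 0.12 log2 (SE, n = 4 per group, 95% interval -0.97 to -0.43, limma adjusted p = 0.0234). Col7a1 also has 1 probe set on this array.

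Set against each other, the sides of the junction differed between the genotypes, mainly through Col7a1. The mean of the 8 keratinocyte-side genes was 9.93 ± 0.11 log2 in GR-null and 9.75 ± 0.11 log2 in wild-type arrays (SD, n = 4 each), with overlapping groups. Among these 8 genes, 6 had a positive and 2 (Dst and Plec) a negative log2 fold change. That mean minus Col7a1 was -0.25, -0.11, -0.20 and -0.24 log2 in GR-null 5, 17, 25 and 26, against -0.86, -1.39, -0.98 and -1.11 log2 in wild-type 4, 6, 28 and 29. Only differences between arrays carry meaning in this quantity, since it joins different probe sets. It was higher by 0.88 log2 in GR-null skin, a 1.85-fold shift of the keratinocyte side relative to Col7a1, and of which 0.70 came from Col7a1 and 0.18 from the mean of the keratinocyte side. Col17a1 minus Col7a1 alone was 0.24 ± 0.20 log2 in GR-null and -1.05 ± 0.22 log2 in wild-type arrays (SD, n = 4 each), a 2.44-fold shift. These quantities were built from the chosen genes and are given without a test.

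**Figure D2:**
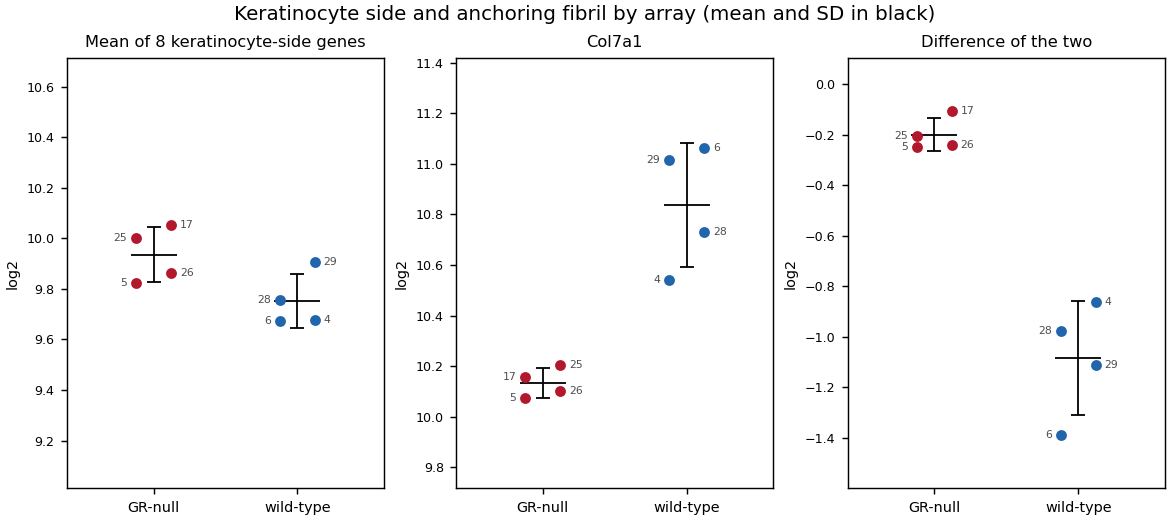
Log2 level by array of the mean of the 8 keratinocyte-side genes (left panel), of Col7a1 (middle) and of their difference (right), GR-null arrays left of wild-type arrays in each, with label numbers and with mean and SD in black. The keratinocyte-side means overlap between the groups, while the difference lies between -0.25 and -0.11 in GR-null arrays and between -1.39 and -0.86 in wild-type arrays.

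**Figure D3:**
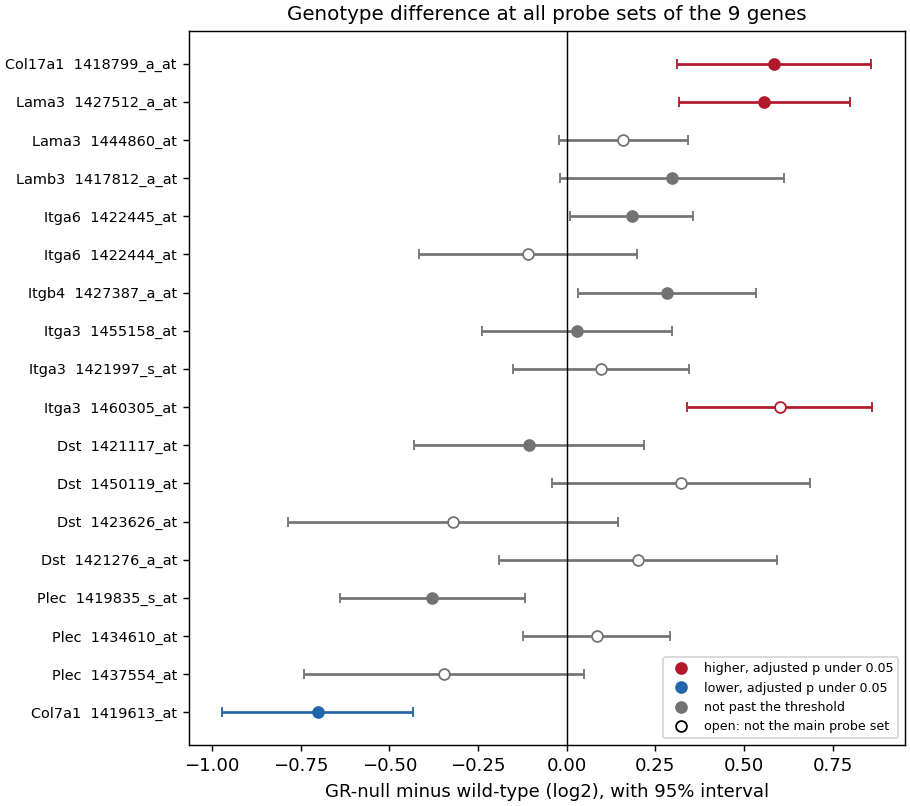
GR-null minus wild-type difference (log2) with its 95% interval at all 18 probe sets of the 9 genes, filled for the main probe set of a gene and open for the others, coloured where the adjusted p over all probe sets was under 0.05. The coloured points are the main probe sets of Col17a1 and Lama3 and the dimmest of Itga3 to the right of 0, and Col7a1 to the left.

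Over all 18 probe sets, 3 were higher and 1 was lower past the threshold (limma, adjusted over 45037 probe sets), against 2.22% and 1.63% of all probe sets. The groups did not overlap for 3 of the 9 genes on the higher side (Col17a1, Lama3 and Itga6) and for 1 on the lower side, against 6.69% and 6.30% of all genes. Before adjustment, 4 of the 9 were higher and 2 lower at p below 0.05 by limma, against 10.5% and 11.1% of all genes.

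Within a genotype, some arrays read high or low for many of these genes at once. In GR-null skin, number 17 was the highest array for 5 genes and the lowest for 2, Col17a1 and Lama3. Wild-type 29 was above the wild-type mean for all 9 genes and the highest wild-type array for 8 of them, Col7a1 being the exception. Wild-type 4 was the lowest for 5. The SD within a group ran from 0.059 to 0.305 log2 over the 9 genes in GR-null arrays and from 0.087 to 0.25 log2 in wild-type arrays.

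The calls changed with the arrays used. Col7a1 stayed past the threshold in 3 of the 8 fits that left out 1 array (without wild-type 4, wild-type 6 or GR-null 17), and Col17a1 and Lama3 in 1 of 8 each (without GR-null 17, at 0.67 and 0.61 log2). Their limma adjusted p in those fits ran from 0.0188 to 0.0750, from 0.0133 to 0.132 and from 0.0147 to 0.0984. The sizes moved little, from -0.80 to -0.63 log2 for Col7a1, from 0.52 to 0.67 for Col17a1 and from 0.48 to 0.61 for Lama3. Averaging all probe sets of a gene gave Lama3 a smaller difference of 0.36 log2, which was past the threshold (limma adjusted p = 0.0275). With a block for label numbers below 10, Col17a1 was at 0.55 log2 and no longer past the threshold (limma adjusted p = 0.0578). With the mean of Krt5, Krt14 and Krt15 in each array as a covariate, the differences were -0.68, 0.60 and 0.57 log2 (limma adjusted p = 0.0205, 0.0480 and 0.0361).

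**Figure D4:**
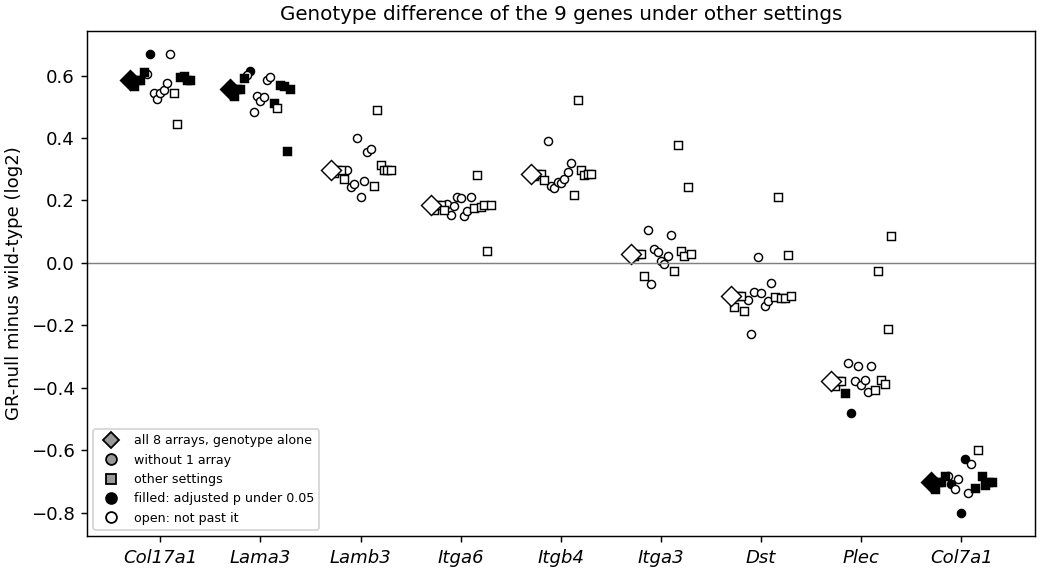
GR-null minus wild-type difference (log2) of each of the 9 genes with all 8 arrays (diamond), in 8 fits without 1 array (circles) and under 10 other settings (squares), filled where the adjusted p was under 0.05. Col17a1, Lama3 and Col7a1 keep their sign while many of their symbols are open, and the lowest value of Lama3, 0.36, is the mean of its probe sets; the values of Itga3, Dst and Plec fall on both sides of 0.

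Dorsal skin as sampled also held transcripts of skeletal muscle, and these moved with genotype. All 20 skeletal muscle markers had a negative log2 fold change, with a median of -0.51, and 4 were past the threshold: Myh3, Actn2, Tnnt1 and Mybpc1, named after their values were seen. The log2 of their summed level ran from 16.47 to 17.11 in GR-null and from 17.07 to 17.17 in wild-type arrays, with GR-null 17 at the wild-type level. With the mean of that list as a covariate, the difference of Col17a1 was 0.44 ± 0.20 log2 (SE, limma adjusted p = 0.471), that of Lama3 0.50 ± 0.18 (adjusted p = 0.370) and that of Col7a1 -0.60 ± 0.20 (adjusted p = 0.332). They kept their sign and were no longer past the threshold. Without the covariate their SEs were 0.12, 0.11 and 0.12 log2. With it, Nr3c1 was at -0.89 log2 and also not past the threshold (limma adjusted p = 0.141). The mean of that list was 11.14 to 11.45 log2 in GR-null 5, 25 and 26 and 11.92 to 12.05 log2 in wild-type arrays. GR-null 17 alone, at 11.92 log2, came near the wild-type range, so muscle level and genotype largely cannot be told apart here. With the covariate the differences of Plec, which muscle also expresses, and of Dst were -0.027 and 0.21 log2. Those of Itgb4, Lamb3, Itga6 and Itga3 were larger than without the covariate, at 0.52, 0.49, 0.28 and 0.38 log2, and none was past the threshold. The part of muscle content in these differences was not tested further.

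Markers of other cell types that these genes could come from were read in the same way. For basal keratinocytes (4 markers) the log2 of the summed level ran from 14.19 to 14.57 in GR-null and from 13.96 to 14.69 in wild-type arrays, and 1 was past the threshold, the epidermal regulator Trp63, higher by 0.60 ± 0.12 log2 (limma adjusted p = 0.0372). The list median was 0.035 log2, and 2 of the 4 had a negative value, Krt5 at -0.14 and Krt14 at -0.20 log2. Trp63 stayed past the threshold in 2 of the 8 fits without 1 array, and not with the block for label numbers below 10 (0.56 log2, limma adjusted p = 0.0528) or with the muscle covariate (0.63 log2, adjusted p = 0.331). For suprabasal keratinocytes (5 markers) it ran from 15.97 to 16.24 in GR-null and from 16.27 to 16.46 in wild-type arrays, and the envelope protein gene Lor was lower by 0.48 log2 in GR-null skin, past the threshold, with 2 of the 5 lower at an unadjusted p below 0.05. Without _x_at and _s_at probe sets the difference of Lor was -0.24 log2 (limma adjusted p = 0.239). Lor was also not past the threshold with the muscle covariate (-0.55 log2, limma adjusted p = 0.279), and it stayed past it in 2 of the 8 fits without 1 array. For fibroblasts (6 markers) it ran from 16.45 to 16.59 in GR-null and from 16.46 to 16.60 in wild-type arrays, with 0 of 6 past the threshold (limma), though 2 higher and 1 lower at an unadjusted p below 0.05. For Schwann cells, which also use the Itga6 and Itgb4 integrin, 3 of 5 listed markers were measured and the range was 11.07 to 11.64 in GR-null and 10.72 to 11.19 in wild-type arrays. None was past the threshold by limma, while 2 were higher and 1 lower at an unadjusted p below 0.05, with a list median of 0.42 log2. Of 5 melanocyte markers 1 was past the threshold, the pigment cell gene Pmel, at 0.85 log2, and 3 were higher at an unadjusted p below 0.05. Their median was 0.71 log2, and the summed level ran from 11.86 to 12.53 in GR-null and from 11.34 to 11.67 in wild-type arrays. In the endothelial, leukocyte and adipocyte lists 0 members passed (limma), and 2 endothelial ones were lower at an unadjusted p below 0.05. What these shifts contribute to the 9 genes was not tested.

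Other genes of the same adhesion machinery were read from lists. These lists were chosen with earlier results of these data known, and their counts are read beside the 1.40% and 1.56% above. In the basement membrane, 2 of 21 measured partners rose, 0 fell and the other 19 did not pass, with a list median of -0.014 log2. They were Nid2, a nidogen that links laminin to type IV collagen, at 9.84 ± 0.11 log2 in GR-null and 9.08 ± 0.30 log2 in wild-type skin (SD, n = 4 each), a rise of 0.76 ± 0.14 (SE, limma adjusted p = 0.0325), and Frem2, a basement membrane protein needed for epidermal adhesion in the embryo, which rose by 0.53 ± 0.11 (adjusted p = 0.0408). Groups did not overlap for either gene. At an unadjusted p below 0.05 by limma, 5 of the 21 were higher and 3 lower, against 10.5% and 11.1% of all genes. Grip1, not past the threshold, was at -0.72 log2 (limma adjusted p = 0.104).

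Among integrin and adhesion partners, Cd9 alone of 21 was past the threshold. Before adjustment, 4 of the 21 were higher and 4 lower at p below 0.05 by limma. Cd9, a tetraspanin that associates with laminin-binding integrins, read 11.06, 10.93, 11.54 and 11.54 log2 in GR-null 5, 17, 25 and 26, against 10.08, 10.68, 10.20 and 10.17 log2 in wild-type 4, 6, 28 and 29. All GR-null arrays lay above all wild-type arrays, by 0.99 ± 0.18 log2 (SE, limma adjusted p = 0.0303). Of the 8 plakins and basal keratins, 0 were past the threshold, at an unadjusted p below 0.05 as well (limma). The 2 with the smallest p were the cytoskeletal linker Macf1 at 0.13 ± 0.068 log2 and periplakin (Ppl) at 0.44 ± 0.35. Ppl depended on single arrays, at 0.82 log2 and past the threshold without GR-null 17 (limma adjusted p = 0.0302) and at 0.21 log2 without GR-null 26. Without GR-null 17, 692 of all genes were called higher, beside 255 with all arrays. Another probe set of Macf1 was past the threshold in the same direction.

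On the dermal side, 2 of 27 collagens, collagen-processing enzymes and matrix genes around the anchoring fibril fell, 0 rose and the other 25 did not pass. The list median was -0.11 log2, beside -0.0045 over all genes, and 22 of the 27 had a negative value. The share of all genes with a negative value was not counted. At an unadjusted p below 0.05 by limma, 1 was higher and 5 lower, against 10.5% and 11.1% of all genes. The fibrillar collagen gene Col5a3 averaged 8.95 ± 0.50 log2 in GR-null and 10.30 ± 0.46 log2 in wild-type skin (SD, n = 4 each), lower by 1.36 ± 0.28 on the log2 scale (SE, limma adjusted p = 0.0410). The other probe set of Col5a3 was not past the threshold, and the mean of both gave -0.75 log2 (limma adjusted p = 0.0386). The crosslinking enzyme gene Tgm2 averaged 9.95 ± 0.46 log2 in GR-null and 11.03 ± 0.21 log2 in wild-type skin. Tgm2 differed by -1.08 ± 0.22 (limma adjusted p = 0.0370) at a probe set prone to cross-hybridisation, and 3 of its 5 other probe sets were past the threshold in the same direction. Of 11 sheddases, matrix proteases and their inhibitors 1 fell, the inhibitor gene Timp1 at -0.46 ± 0.10 log2 (limma adjusted p = 0.0499). Of 15 TGF-beta and AP-1 regulators, which are known to act on Col7a1 transcription, 0 were past the threshold, while before adjustment 1 was higher and 1 lower at p below 0.05 by limma, Smad2 at 0.39 ± 0.092 (adjusted p = 0.0570) and Jund at -0.29 ± 0.12 (adjusted p = 0.182). With array weights both were past the threshold, at 0.44 and -0.37 log2, and with the mean of all probe sets they were at 0.20 and -0.14 log2 and not past it. Of these partners past the threshold, Nid2, Frem2 and Cd9 stayed past it in 2 of the 8 fits without 1 array, and Col5a3, Tgm2 and Timp1 in 1 of 8. With the block for label numbers below 10, Cd9 was past it (limma adjusted p = 0.0461), and Nid2, Frem2, Col5a3, Tgm2 and Timp1 were not, with adjusted p from 0.0512 to 0.0652 and sizes close to those above. With the Y-linked level as a covariate, Frem2, Col5a3 and Timp1 were not past it (limma adjusted p = 0.0507, 0.0516 and 0.0548). With the basal keratin covariate, Col5a3 and Timp1 were not (limma adjusted p = 0.0535 and 0.0643). Timp1 was also not past it with the intensity trend and robust prior (limma adjusted p = 0.0679). With the muscle list as a covariate 0 of the 6 were past it by limma. In that fit Tgm2 was at -0.49 log2, and the other 5 moved by less than 1.5 times.

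**Figure D5:**
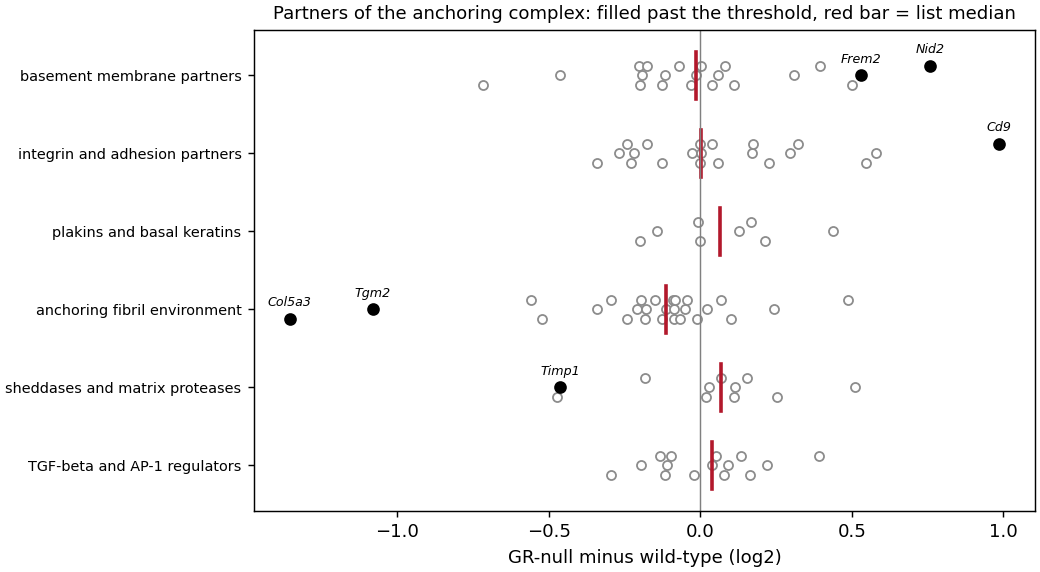
GR-null minus wild-type difference (log2) of each measured gene in 6 lists of partner genes, filled and named where past the threshold, with the median of each list as a red bar. Nid2, Frem2 and Cd9 lie to the right of 0, Col5a3, Tgm2 and Timp1 to the left, and the medians lie between -0.11 and 0.069.

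The genes most like Col7a1 over the 8 arrays, by the root mean square difference between profiles centred on their own means, were Fxyd5 (0.0843 log2), Pgap6 (0.0845) and Atf5 (0.115), among 9096 genes above the median level. For Col17a1 they were Commd10 (0.0744 log2), Lama3 (0.0912) and Acvr1b (0.0919). The genotype difference is part of each profile, so this likeness is a description with no test.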

How the data were processed

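The authors deposited 1 log2 level per probe set and array, made with RMA (background subtraction, equal intensity distributions across arrays, summary of the probes of each set) per the submitters' processing notes. Its version and probe set definition are not stated. RMA understates differences of very dim or very bright transcripts, and it hides a shift shared by most transcripts. Array medians lay between 6.46 and 6.52, and the number of arrays limits the precision.

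Of 45101 probe sets, 64 controls were left out. By the platform annotation 34945 carried 1 symbol, 932 several and 9160 none listed. Symbols were updated through identifiers in the RefSeq table of GRCm38.p6, which named 18032 of the 18193 genes.

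Genotype was the single term of a linear model fitted to all probe sets with limma 3.58.1 in R 4.3.3 (lmFit, eBayes, two-sided), with differences as GR-null minus wild-type. A gene was read at the brightest of its probe sets on average and p-values were adjusted over all genes. The fit was tested on simulated data with noise drawn independently for each probe set. Such data hold no shift shared by many genes of an array, so the test does not cover such shifts. Named genes were Nr3c1, all 9 genes with all probe sets, and in each partner list up to 4 past the threshold with the largest change or otherwise the 2 with the smallest p. The 9 genes and the lists were chosen with earlier results of these data known. Alternatives were array weights, a robust variance prior with an intensity trend, leaving out dim probe sets, quantile normalization once more, leaving out each array, a block for label numbers below 10, muscle, basal keratin and Y-linked levels as covariates, the mean of all probe sets, and leaving out _x_at and _s_at probe sets.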

Additional observations from a re-analysis of the deposited data

Results flagged for a closer look

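In the groups of 4 arrays, an array was singled out when its gap to the nearest other array exceeded Dixon's 95% critical value as a share of the group's range, which chance gives for about 5% of groups. Of 58 groups read, 2 held such an array. Itgb4 was 7.94 log2 in GR-null 5, with the other GR-null arrays between 8.33 and 8.39. Without GR-null 5 the difference of Itgb4 was 0.39 log2 with limma adjusted p = 0.0742. The plakin gene Ppl was 11.27 log2 in wild-type 28, with the other wild-type arrays between 10.76 and 10.80.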

How the results depend on the processing

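No analysis paired by litter was possible because the labels do not state which arrays share a litter. The number of genes past the threshold was 539 with all arrays, 1944 with array weights, 884 with the mean of all probe sets and 43 with the muscle covariate, and from 79 to 1640 without 1 array. For probe sets it was 1735, and from 125 to 4866 without 1 array. Of the 9 anchoring genes, 2 were called higher with all arrays, 1 (Lama3) with the label-number block and 0 with the muscle covariate (limma). Without 1 array, from 0 to 2 were called higher. Those called lower were 1 with all arrays, 2 with array weights (Col7a1 and Plec), 0 with the muscle covariate and from 0 to 2 without 1 array. Of all 18193 genes, 255 were called higher with all arrays, 164 with the block and 23 with the muscle covariate. Called lower were 284 of all genes with all arrays, 1062 with array weights and 20 with the muscle covariate. Without 1 array, 19 to 692 of all genes were called higher and 60 to 948 lower. With the muscle covariate, 5 of the 9 had an unadjusted p below 0.05 in either direction (limma). The share of all genes at that level was not counted in that fit, so those 5 have no background. The highest counts of genes and probe sets without 1 array were those without GR-null 17. The cause of these shifts was not tested. The keratinocyte side minus Col7a1 stayed between 0.78 and 0.96 log2 without 1 array and between 0.84 and 0.95 under the other settings. Col17a1, Lama3, Lamb3, Itga6, Itgb4 and Col7a1 kept their sign in all 18 alternatives. For Itga6 the value came near 0 with the mean of all probe sets, at 0.038 log2 (limma adjusted p = 0.866). Itga3 changed sign with array weights (-0.044) and with the block (-0.027), and ran from -0.069 to 0.11 without 1 array. Dst changed sign with the muscle covariate (0.21) and with the mean of all probe sets (0.025), and ran from -0.23 to 0.019 without 1 array. Plec changed sign without _x_at and _s_at probe sets (0.085), where another probe set is read, and Ppl with the muscle covariate (-0.55).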
